A study of Drosophila melanogaster with 7 samples.

Results

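The genes described here make up the TOR growth control of Drosophila melanogaster: the paired TOR inhibitors chrb (charybde) and scyl (scylla), the kinase mTor, its targets S6k and Thor, the GTPase switch Tsc1, gig and Rheb, and the transcription factors Myc and Max. They were chosen by name, with the differences between lola mutant and control embryos on these arrays already known, so every value of that difference is a description. Whether a feature passed the threshold of the fit over all features is stated in that sense too, with no p, and supports nothing. A feature (1 spotted cDNA clone) counted when its only annotated gene was 1 of the 10, and clones LD32080, GH09771 and LD22381 were added because the study assigns them to chrb. By this rule 6 of the 10 genes had a feature, with 9 of the 10227 features tested. These were 3 clones of chrb, 2 of Max and 1 each of scyl, mTor, S6k and Tsc1. Thor, gig, Rheb and Myc had none by this rule.

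The study asked which transcripts change when zygotic lola function is lost. Lola belongs to the BTB zinc-finger transcription factors, and neurons need it for axon growth and guidance. Control embryos were w1118; sca-GAL4/UAS-tau-eGFP, and mutant embryos carried the same white allele, driver and reporter with lolaORE76 on both the sca-GAL4 and the UAS-tau-eGFP chromosome. In both, the scabrous GAL4 driver expressed the fluorescent reporter in the central nervous system, by which embryos were sorted. RNA of whole embryos aged 10 to 12 h, about 300 embryos a sample, was compared on 7 two-colour arrays, each with its own independently collected mutant and control pair, with Cy5 as the dye of the mutant on arrays 1, 3 and 6 and Cy3 on the other 4. The allele puts a stop codon into the part shared by all Lola isoforms, but Lola supplied by the mother remains, and the study could not separate the allele from other variants on the lola chromosome. Apart from mTor on arm 2L, the genes with a feature lie on chromosome 3: chrb, scyl, S6k and Max on arm 3L, and Tsc1 on arm 3R.

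TOR kinase promotes cell growth when insulin and amino acids are plentiful. It phosphorylates S6 kinase, which acts on the ribosome, and the 4E-BP protein Thor, which otherwise holds back translation at the mRNA cap. Rheb switches TOR on, the complex of Tsc1 with gig (Tsc2) switches Rheb off, and Scylla and Charybde, the fly relatives of mammalian REDD1, reduce growth through this branch and are known for their induction by hypoxia. Myc bound to Max drives ribosome and growth genes.

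All values are log2 ratios, and positive values mean more RNA in the mutant. This direction is likely but is not stated in the deposited table: every deposited sign was turned, because 14 of the 14 clones that could be checked had the sign opposite to that printed by the study. If the sign was as deposited, each higher below reads lower. A ratio gives no level, so the genes cannot be ranked by abundance and the presence of a tissue cannot be checked from its markers. In whole embryos, fewer cells of a type and less RNA per cell cannot be told apart.

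Array 6 had the lowest average in each of the 6 lists of tissue markers. The 14 muscle markers averaged -1.27 on array 6, -0.40 on array 7 and 0.08 to 0.56 on arrays 1 to 5. The 30 cuticle markers averaged -1.05, -0.39 and -0.01 to 0.50 in the same order. The 9 tracheal and 8 neuronal markers were also lowest on array 6, at -0.56 and -0.36. Gasp and serp, on both the tracheal and the cuticle list, had lowest values of -2.04 and -2.18. No other tracheal clone fell below -0.38 on any array. Among neuronal clones nSyb and nrv3 clone RH24769 reached -1.14 and -1.96, and no other fell below -0.40. These averages thus rest largely on few genes, and the lists are not all separate. The 15 haemocyte markers averaged -0.20 on array 6 and 0.13 to 0.28 on the rest. The 7 fat body markers averaged -0.42 on array 6 and -0.26 to -0.07 on the rest. Single markers passed in 4 of 6 lists: 3 of 15 haemocyte markers were higher and 1 lower, 2 of 7 fat body and 1 of 30 cuticle markers were lower, and 1 of 8 neuronal markers was higher. The part of this difference in the results was not tested, and means without array 6 and array 7 are given where they matter. Of the 10227 features, 625 passed limma's moderated test at an adjusted p of 0.05 (6.11%), 367 of them higher in the mutant (3.59%) and 258 lower (2.52%).

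Of the 9 features, 4 passed with more RNA in the mutant, 3 passed with less, and 2 did not pass. By gene, chrb and scyl were higher, mTor and Max were lower, and S6k and Tsc1 did not pass. These counts stand beside 6.11% of all features and 6.05% of all genes, and nothing is read from them, since the genes were chosen with these results known.

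**Figure D1:**
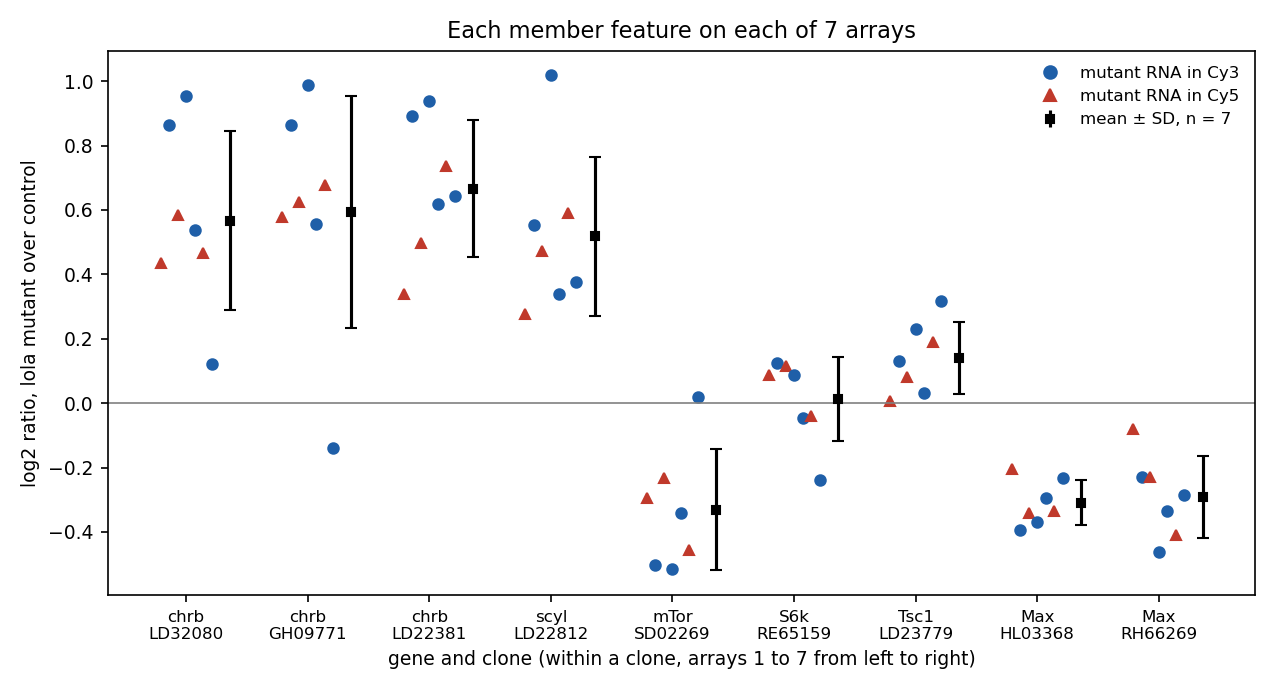
Log2 ratio of mutant over control RNA for each of the 9 features, with 1 point per array coloured by the dye of the mutant RNA and a black square with bars for the mean and SD over 7 arrays. The clones of chrb and scyl lie above 0 except GH09771 on array 7, and those of Max lie below 0 on all 7.

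The TOR inhibitors were the genes with the greatest differences. chrb clone LD32080 read 0.43, 0.86, 0.58, 0.96, 0.54, 0.47 and 0.12 on arrays 1 to 7, a mean of 0.57 ± 0.28 (SD, n = 7). Clone GH09771 read 0.58, 0.87, 0.63, 0.99, 0.56, 0.68 and -0.14, a mean of 0.59 ± 0.36 (SD, n = 7). Clone LD22381 read 0.34, 0.89, 0.50, 0.94, 0.62, 0.74 and 0.64, a mean of 0.67 ± 0.21 (SD, n = 7). All 3 clones were highest on arrays 2 and 4, and 20 of their 21 values were above 0. The exception was GH09771 on array 7.

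The 3 chrb clones averaged 0.61 ± 0.25 (SD, n = 7), 1.52-fold more RNA in the mutant. The RT-PCR of chrb in the study showed a significant difference of the same sign, smaller than that of the clones. Within an array they lay 0.03 to 0.27 apart on arrays 1 to 6 and 0.78 apart on array 7, where LD22381 was high and the other two were low. Without array 7 the average was 0.68 ± 0.20. The clones are probes on the same cDNA samples, so their likeness bears on the measurement and adds no replicate. Across the 7 arrays LD32080 and GH09771 correlated at r = 0.92, LD32080 and LD22381 at r = 0.62, and GH09771 and LD22381 at r = 0.42. Without array 7 the last 2 values were 0.82 and 0.86. RefSeq lists 2 transcripts of chrb, and which of them each clone can detect was not examined.

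scyl clone LD22812 read 0.28, 0.55, 0.47, 1.02, 0.34, 0.59 and 0.38 on arrays 1 to 7. Every array was above 0, array 4 was far above the others, and the mean was 0.52 ± 0.25 (SD, n = 7), 1.43-fold more RNA in the mutant. The difference between the chrb average and scyl was 0.09 ± 0.17, from -0.17 to 0.32, and chrb was the higher on 5 of the 7 arrays, so that the order of the pair was not settled beyond its spread. The means of all chrb clones and of scyl lay at or above the 98.7th percentile of the features tested.

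**Figure D2:**
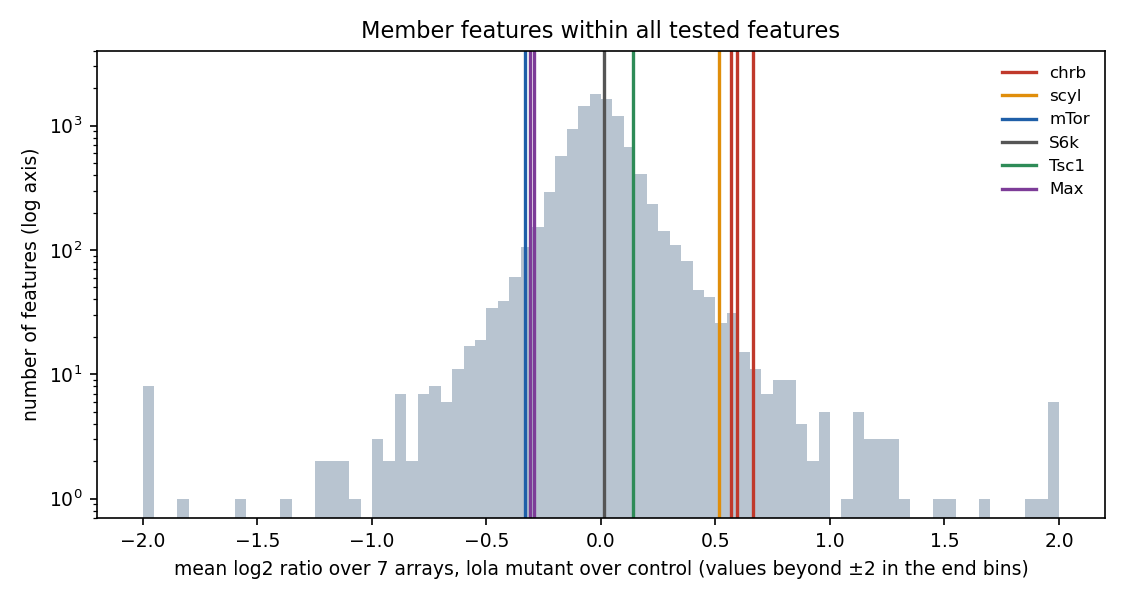
Number of features (log axis) by mean log2 ratio over 7 arrays for all 10227 features, with the 9 features of TOR growth control marked by lines and the most extreme features gathered in the end bins. The means of the chrb clones and scyl lie between 0.52 and 0.67, and those of mTor and the Max clones between -0.33 and -0.29.

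Tsc1, the partner of gig in the complex that switches Rheb off, did not pass. Its clone LD23779 read 0.01, 0.13, 0.08, 0.23, 0.03, 0.19 and 0.32, a mean of 0.14 ± 0.11 (SD, n = 7). All 7 values were above 0, and the highest came from array 7, where mTor and clone GH09771 of chrb were closest to or across 0.

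mTor, the kinase itself, read lower in the mutant with its only clone. This call was lost without array 2, 4 or 5. The RT-PCR of mTor in the study showed no significant difference and had the opposite sign. Clone SD02269 read -0.29, -0.50, -0.23, -0.51, -0.34, -0.46 and 0.02 on arrays 1 to 7, a mean of -0.33 ± 0.19 (SD, n = 7), or 1.26-fold less RNA. The values were below 0 on 6 of 7 arrays, and array 7 did not share the direction. Without array 7 the mean was -0.39. The chrb average exceeded mTor on every array, by 0.19 on array 7 and by up to 1.47 on array 4, and scyl exceeded mTor by 0.36 to 1.53.

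S6k, the kinase downstream of TOR, did not pass. Clone RE65159 read 0.09, 0.12, 0.12, 0.09, -0.05, -0.04 and -0.24, a mean of 0.01 ± 0.13 (SD, n = 7), with 4 arrays above 0 and 3 below. Thor had no feature by the rule. RefSeq lists clone HL08053 among the names of Thor, although the platform gives this clone no gene. It read -0.56, 0.11, 0.41, 0.72, 0.39, 0.41 and -0.09, a mean of 0.20 ± 0.42 (SD, n = 7) that did not pass. Its range from array 1 to array 4 was wider than that of any of the 9 features, and the data give no direction for it.

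Max, the partner that Myc needs to bind DNA, read lower in the mutant by a small amount with both clones. Neither clone passed with a minimum fold of 1.1, and RH66269 lost its call without array 2, 4 or 5. Clone HL03368 read -0.20, -0.39, -0.34, -0.37, -0.30, -0.33 and -0.23, a mean of -0.31 ± 0.07 (SD, n = 7). Clone RH66269 read -0.08, -0.23, -0.23, -0.46, -0.34, -0.41 and -0.28, a mean of -0.29 ± 0.13 (SD, n = 7). All 14 values were below 0. The average of the clones was -0.30 ± 0.09, 1.23-fold less RNA. The SD of HL03368, 0.07, was the smallest of the 9 features and the median over all features was 0.19.

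In order of mean, chrb and scyl stood first, followed by Tsc1, S6k, Max and mTor. Max and mTor differed by less than the SD of mTor, and the values of Tsc1 and S6k overlapped. Without array 6 the means of the chrb clones were 0.58, 0.58 and 0.65, that of scyl 0.51, that of mTor -0.31 and those of the Max clones -0.31 and -0.27. Without array 2, 4 or 5, 3 of the 7 calls were lost each time, those of chrb clone GH09771, mTor and Max clone RH66269.

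The dye of the mutant RNA was not part of the choice of genes and was tested. The dye term, the mean of arrays with the mutant in Cy5 minus that of arrays with the mutant in Cy3, ran from -0.25 for chrb clone LD22381 to 0.09 for Max clone RH66269. None of the 9 features passed (limma, adjusted p from 0.269 to 0.981, and 0 at an unadjusted p of 0.05), while 1180 of all features did (11.5%). The mean of every called feature had its sign on both dye orientations.

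The ratio of chrb varied from array to array with that of scyl, and opposite to those of mTor and Max. Across the 7 arrays the chrb average had a Pearson r of 0.77 and a Spearman rho of 0.79 with scyl, of -0.92 and -0.96 with mTor, and of -0.66 and -0.86 with Max. Without the 2 arrays farthest from the median of chrb, arrays 4 and 7, r was 0.72, -0.79 and -0.56. Single clones were less even: Max clone RH66269 had r of -0.31 with chrb clone LD32080 and of -0.24 with GH09771. Tsc1 had r of -0.17, -0.37 and 0.57 with LD32080, GH09771 and LD22381, and S6k had 0.79, 0.86 and 0.05. Over all 7 arrays neither followed all clones of chrb. For Tsc1 this rested on array 7, without which its values were 0.62, 0.81 and 0.84. Those of S6k were then 0.50, 0.43 and 0.01. The values are the ones the genes were chosen on, so no p is given, and the 3 or 4 arrays of a dye orientation are too few for a correlation within it. The size of the whole mutant difference also varied: the median difference of the other 618 called features, in their own direction, was 0.27 on array 1, 0.35 to 0.41 on arrays 3, 5, 6 and 7, and 0.50 and 0.52 on arrays 2 and 4. chrb, scyl, mTor and the average of the Max clones were also farthest from 0 on array 4. The part of this shared difference in the correlations was not tested.

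**Figure D3:**
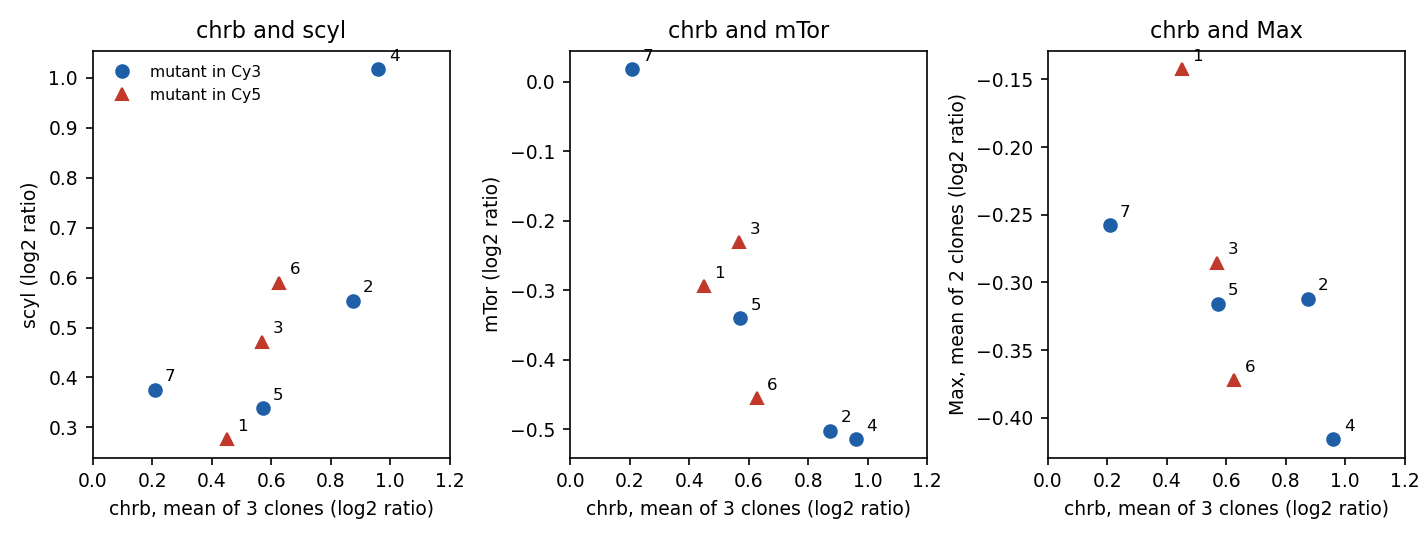
Log2 ratios of scyl, mTor and Max (vertical axes) against the average of the 3 chrb clones (horizontal axes), with 1 numbered point per array and the dye of the mutant RNA as colour and shape. Arrays 2 and 4 have the highest chrb ratios and the lowest mTor ratios, and array 7 lies at the other end for both.

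The features whose ratios followed those of chrb most closely were sought among 8579 features with 1 gene. They were clones of Snx27 (r = 0.99, mean 1.15 ± 0.49), ReepA (r = 0.97, mean 0.16 ± 0.12), Tsen15 (r = 0.96, mean 0.11 ± 0.19), fal (r = 0.96, mean 0.17 ± 0.13) and pros (r = 0.96, mean 0.42 ± 0.22), each over 7 arrays. Snx27 and pros passed as higher in the mutant, and the other 3 did not pass. pros encodes Prospero, a homeodomain protein that lets daughters of neural stem cells differentiate. scyl stood at place 209 in this order.

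scyl and chrb lie on the same arm, 3L, and RefSeq places 29 other genes between them, 14 of them coding for protein. Of these, 5 had a feature: Dyro at 0.01, CG7573 at -0.01, CG7560 at -0.01, CG7557 at 0.00 and CG7551 at -0.12. None of the 5 passed, beside 6.11% of all features. The 5 genes beyond either end had no named feature, so only the interval itself was measured.

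Beyond these genes, 7 lists of the wider pathway named 157 genes, of which 109 were measured. With a gene counted when at least 1 of its clones passed in 1 direction, 6 were higher in the mutant (5.5%), 7 were lower (6.42%) and 96 did not pass. Over all 7584 genes measured, 3.52% were higher and 2.53% lower. These shares stand beside the count of every list below, and no test of a list was run. The lists were chosen with earlier results of these data known, so their counts, medians and adjusted p-values are a description. Leaving out 1 array gave between 2 and 7 higher and between 1 and 9 lower, so the single genes below differ in how far they depend on an array.

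In the insulin branch upstream of TOR, none of 8 measured genes passed, beside 6.05% of all genes. The median of the means of these 8 was -0.05 beside -0.02 over all genes. Akt, the kinase that carries the insulin signal, had a mean of -0.05 ± 0.06. Among 25 measured genes of the TOR complexes and of nutrient sensing, 3 were higher and none was lower, with a median of -0.02. They were mnd, an amino acid transporter (0.37 ± 0.08, adjusted p = 0.00262), L, the fly PRAS40 (0.25 ± 0.10, adjusted p = 0.0241), and REPTOR, a transcription factor active when TOR is low (0.24 ± 0.12, adjusted p = 0.036). All 7 arrays were above 0 for each of these clones. The calls of L and REPTOR were each lost in 5 of the 7 fits that left out 1 array, without arrays 2, 3, 4, 5 or 7, and that of mnd in 0. A second clone of L had a mean of 0.04, and L no longer passed when its clones were averaged (0.14, adjusted p = 0.204). The study also singled out L on these arrays. rictor and Lst8, subunits of TOR complexes, had means of -0.02 and 0.09. Both clones of Sesn, the fly sestrin that restrains TOR, had positive means, 0.33 ± 0.33 and 0.29 ± 0.25, and neither passed.

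Of 14 measured genes of translation downstream of TOR, 1 was higher and 1 lower, with a median of -0.01. eIF4E3, a cap-binding protein of the eIF4E family, had a mean of -0.54 ± 0.22 (adjusted p = 0.00422) and was below 0 on all 7 arrays, from -0.82 to -0.32, while the general factor eIF4E1 had a mean of 0.03. Pdcd4, in mammals an inhibitor of the helicase eIF4A, passed with 1 clone (0.40 ± 0.31, adjusted p = 0.0485) and not with the other (0.03), and the average of both did not pass (0.22, adjusted p = 0.162). With 1 array left out, the call of eIF4E3 was lost in 0 of 7 fits and that of Pdcd4 in 6, all but the one without array 1. Of 21 measured autophagy genes, ref(2)P alone passed (-0.30 ± 0.17, adjusted p = 0.0264). Its call was lost without array 1, 2, 4 or 5. It encodes the fly p62, a receptor for autophagy cargo, while Atg1 and Atg8a had means of -0.02 and 0.04.

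In the Myc network, 1 of 15 measured genes passed. Mondo, which binds DNA with bigmax and responds to sugars, had a mean of 0.35 ± 0.09 (adjusted p = 0.00468) and ran from 0.21 to 0.45, above 0 on all 7 arrays, and its call was lost in 0 of the 7 fits that left out 1 array. bigmax, its partner, had a mean of -0.13 ± 0.22, and Mnt, which competes with Myc for Max, had a mean of 0.15 ± 0.20. Neither passed.

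Ribosome biogenesis, a process that Myc and TOR both promote, had the lowest median of the 7 lists. Of 22 measured genes, 5 were lower and 1 higher, and the median of the gene averages was -0.13 beside -0.02 over all genes. Every one of the 22 gene averages was below 0, against 55.1% of all genes. This held with the arrays median-centred and with quantile normalisation, which rescale the same 7 arrays and add no independent evidence. The genes share those arrays, and the list was chosen with earlier results known, so the contrast is a description. The genes that passed as lower were Surf6 (-0.32 ± 0.18, adjusted p = 0.0262), RpLP0-like (-0.29 ± 0.10, adjusted p = 0.0121), NHP2, a protein of the snoRNPs that modify ribosomal RNA (-0.26 ± 0.17, adjusted p = 0.0485), Polr1E, a subunit of RNA polymerase I (-0.23 ± 0.11, adjusted p = 0.0337), and CG3071 (-0.23 ± 0.11, adjusted p = 0.0375). These 5 calls rested on few arrays: 0 of them remained without array 2 and 0 with a minimum fold of 1.1, and without array 3, 4, 5 or 7 RpLP0-like alone of the 5 passed. pit, an RNA helicase of the nucleolus, was counted as higher through 1 of its 4 clones, RE50740 (0.45 ± 0.26, adjusted p = 0.0179), a call lost without array 4. Its other clones had means of -0.22, -0.18 and -0.16, so pit has no direction that its clones share. By array the list averaged -0.11, -0.22, -0.19, -0.25, -0.21, -0.02 and -0.07, nearest to 0 on arrays 6 and 7, on which the muscle and cuticle markers were also lowest.

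The hypoxia list held 4 measured genes and none passed, beside 6.05% of all genes, so nothing is read from this count. sima, the fly HIF alpha subunit, and tgo, its partner, had means of -0.05 ± 0.26 and 0.05. The 2 clones of Hph, the oxygen-sensing prolyl hydroxylase that is itself a hypoxia target, had means of 0.79 ± 0.95 and 0.72 ± 0.81, with single arrays from -0.88 to 2.08. Their adjusted p were 0.149 and 0.129, and their spread was about as large as their means, so no difference from 0 was detectable with these 7 arrays.

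**Figure D4:**
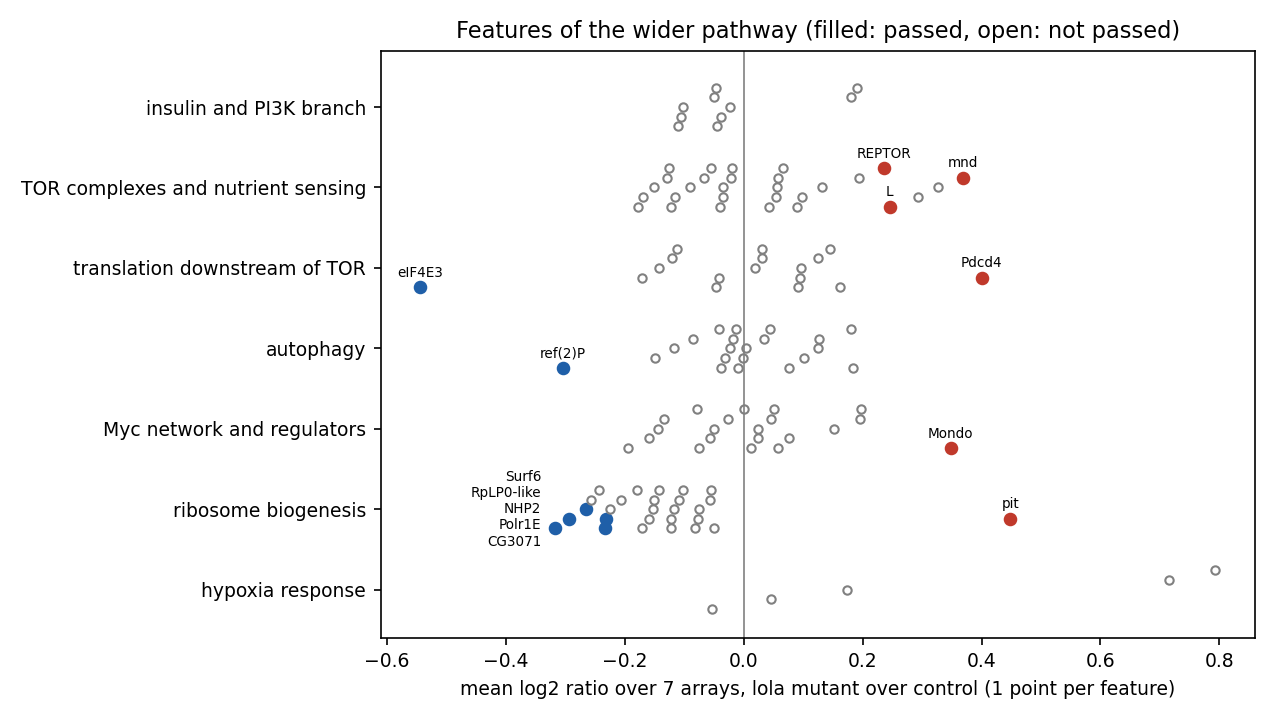
Mean log2 ratio over 7 arrays of each feature in the 7 lists of the wider pathway, with features that passed filled and named and the others open. In ribosome biogenesis the 5 features that passed as lower lie between -0.32 and -0.23, and the only feature above 0 is clone RE50740 of pit at 0.45.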

How the data were processed

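The authors hybridised 7 mutant and control pairs to spotted cDNA arrays, read them with GenePix, left the background uncorrected, used print-tip loess within arrays and scale between arrays in limma, and deposited the resulting log2 ratios. The version of limma they used is not given in the sources used here. Of 10376 deposited features, 149 control spots were left out and 55 clones with retrotransposon or mixed sequence were not assigned to genes. Ratios were multiplied by -1. The columns already ran in 1 direction: of 70 features whose absolute ratios averaged above 1 over the arrays, 62 had means of the same sign in both dye orientations.

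The 10227 features were fitted with lmFit and eBayes (limma 3.58.1, R 4.3.3), the mean being tested two-sided against 0, with Benjamini-Hochberg adjustment over all features, a threshold of 0.05 and no minimum fold. Adjusted p-values come from this fit, except those of the dye term and of averaged clones, which come from limma fits of their own. The fit was tested on simulated data with independent noise for each feature, which hold no variation shared between features. Genes were named from the platform annotation, updated through RefSeq (Release 6). The members and lists were chosen with earlier results of these data known, and 12 list entries were dropped after their names were matched. Named were every member, list genes that passed (up to 6 a list), the 5 features most like chrb and measured neighbours, and further genes of the lists as examples, picked after their values were seen. Alternatives were array weights, single arrays left out, a dye term, each dye orientation alone, a minimum fold of 1.1, 2 further normalisations, a robust fit, all deposited features and averaged clones. Spot intensities were not used here, so a filter on dim spots was not possible, and precision is limited by having 7 arrays.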

Additional observations from a re-analysis of the deposited data

Results flagged for a closer look

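In groups of 7 arrays, a value whose gap to its nearest neighbour exceeds Dixon's critical share of the whole range was singled out, which chance does in about 1 in 20 groups. Clone GH09771 of chrb was such a case on array 7, where it read -0.14 against 0.56 to 0.99 on the other arrays. scyl clone LD22812 was another on array 4, where it read 1.02 against 0.28 to 0.59 on the rest. Array 4 also held the highest values of the 3 chrb clones.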

How the results depend on the processing

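Over 119 alternative values of the 7 member features that passed, 99 kept direction and side of the threshold, 20 lost the call and 0 changed sign. S6k and Tsc1 passed under 0 of 34, and the mean of S6k, close to 0, changed sign in 3, without array 2, without array 3 and on the 4 Cy3 arrays alone. Leaving out 1 array gave 3 to 4 member features higher, 1 to 3 lower and 0 with a dye term, and 2 to 7 pathway genes higher and 1 to 9 lower. Without array 2, 4 or 5, chrb clone GH09771, mTor and Max clone RH66269 lost their calls. Pathway genes higher and lower numbered 7 and 4 without array 1, 3 and 1 without array 2, 3 and 3 without array 3, 2 and 2 without array 4, 3 and 2 without array 5, 6 and 9 without array 6, and 3 and 3 without array 7. With array weights 12 pathway genes were higher and 17 lower, and with the 4 Cy3 arrays alone 12 and 16. With the 3 Cy5 arrays alone 0 member features and 0 pathway genes passed in limma in either direction. At an unadjusted p of 0.05 in that fit, 6 member features and 18 pathway genes did, beside 1751 of all 10227 features. Nothing is read from these counts. Shares over all features are not given here for the other alternatives, so nothing is read from their counts either. A minimum fold of 1.1 left 3 member features higher and 0 lower, and 1 pathway gene higher and 1 lower. Averaging clones reversed pit, to -0.028. The cause of these changes was not tested. Each array already sets a mutant sample against the control collected with it, so the test of the mean ratio against 0 is itself the paired analysis.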
